A study of Rattus norvegicus with 16 samples.

Results

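The genes of the pore-forming and auxiliary subunits of voltage-gated sodium and calcium channels, of the pacemaker (HCN) channels and of the TRPA, TRPC, TRPM and TRPV channels were examined in sorted cells of the rat carotid body. Members were chosen by symbol pattern among array probes that name exactly 1 gene, which gave 60 of 18166 named genes. They comprised 8 sodium channel alpha and 3 beta subunits, 9 calcium channel alpha1, 4 alpha2delta, 4 beta and 7 gamma subunits, 3 HCN channels, 1 TRPA, 6 TRPC, 8 TRPM and 6 TRPV channels. The symbol pattern also took in Trpc4ap, which encodes a protein that binds TRPC4 and is not itself a channel. Each gene had 1 probe, and all 60 were found in the RefSeq rat annotation by gene ID with the same symbol. Cacng8 was named only on a probe shared with a microRNA and was not analysed here.

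The samples came from Wistar rats aged 9 to 11 weeks. Carotid bodies of both sides were mixed, enzymes dispersed the cells, and a flow cytometer divided them by staining for HNK-1, a sulfated sugar epitope of neural cells. Cells with the epitope (HNK-1+) are labelled neuroblasts and cells without it (HNK-1-) glomus cells, so that each group rests on that single antibody. The rats had lived in ambient air (normoxia) or for 3 days in hypoxic chambers, which gave 4 groups of 4 Affymetrix arrays, each made from 500 pg of total RNA. The labels do not state whether each sample was a separate animal or pool, and p-values measure only the spread between these samples, which may be technical.

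Glomus cells are the chemoreceptors of the carotid body. When oxygen falls they depolarise, calcium enters through voltage-gated channels, and transmitter is released onto the sensory nerve endings of the organ. In a voltage-gated calcium channel the alpha1 subunit forms the pore, the beta subunit brings it to the membrane and tunes its gating, and the alpha2delta subunit raises its surface density. Sodium channel alpha subunits carry the upstroke of the action potential, HCN channels pass a depolarising current on hyperpolarisation, and many TRP channels admit calcium and sodium in response to receptors, lipids, temperature or irritants. Neuroblasts of the organ are immature cells of the same sympathoadrenal lineage.

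All values are log2 array levels as deposited, differences are log2 with the limma standard error after ±, and a gene passed at an adjusted p under 0.05 over all 30429 probes. Levels of different probes are not compared with each other. The array medians lay between 4.40 and 4.64 in normoxia and between 4.71 and 4.94 in hypoxia, and the array least like its own group was hypoxic neuroblast replicate 1 (mean correlation 0.914, at least 0.949 for every other array). Neither a date nor a processing batch is labelled, and a batch that followed the oxygen condition cannot be told apart from it. Marker genes followed the sort in normoxia: 6 of 12 neuroblast markers were higher in neuroblasts and 0 lower, among them B3gat1, an enzyme of HNK-1 synthesis (1.36 ± 0.29), and 6 of 12 glomus cell markers were lower, among them the potassium channel gene Kcnk3 (-1.74 ± 0.20). Of all probes 0.996% were higher and 0.828% lower in normoxic neuroblasts. Between the hypoxic populations 0 of 12 genes passed in either marker list, where only 0.138% of all probes were higher and 0.145% lower. The medians there were 0.33 for neuroblast markers and -0.33 for glomus cell markers, against 1.09 and -0.88 in normoxia. By these medians the hypoxic sorts were less distinct. In bulk samples fewer cells of a type and less RNA per cell cannot be told apart.

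The 4 members with the largest falls in hypoxic neuroblasts were Scn9a, Cacnb3, Trpc5 and Cacna1b. For that reason alone the 250 bases before their RefSeq starts (GRCr8) are shown. The runs read 5′ to 3′ in the direction of the gene. Capitals mark ACGTG and GCGTG on either strand (CACGT and CACGC on the other), the cores of the element that hypoxia-inducible factors bind. Matches on opposite strands may overlap, as in CACGTG. The positions are chr3:71701378-71701627 (minus strand) for Scn9a, chr7:131666301-131666550 (plus strand) for Cacnb3, chrX:113027639-113027888 (minus strand) for Trpc5 and chr3:27944286-27944535 (minus strand) for Cacna1b.
Scn9a: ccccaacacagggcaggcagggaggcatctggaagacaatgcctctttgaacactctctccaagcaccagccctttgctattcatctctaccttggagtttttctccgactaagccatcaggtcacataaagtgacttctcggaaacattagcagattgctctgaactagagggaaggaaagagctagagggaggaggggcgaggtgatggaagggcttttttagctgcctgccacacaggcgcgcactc
Cacnb3: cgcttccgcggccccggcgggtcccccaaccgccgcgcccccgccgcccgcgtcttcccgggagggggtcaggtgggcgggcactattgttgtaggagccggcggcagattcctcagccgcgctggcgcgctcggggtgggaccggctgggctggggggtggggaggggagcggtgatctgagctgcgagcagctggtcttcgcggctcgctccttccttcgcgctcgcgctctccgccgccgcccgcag
Trpc5: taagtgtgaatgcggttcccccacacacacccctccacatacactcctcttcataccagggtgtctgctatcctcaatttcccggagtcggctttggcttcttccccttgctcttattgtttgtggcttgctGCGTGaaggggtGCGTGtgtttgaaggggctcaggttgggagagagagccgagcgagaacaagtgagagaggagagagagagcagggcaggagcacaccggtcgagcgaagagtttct
Cacna1b: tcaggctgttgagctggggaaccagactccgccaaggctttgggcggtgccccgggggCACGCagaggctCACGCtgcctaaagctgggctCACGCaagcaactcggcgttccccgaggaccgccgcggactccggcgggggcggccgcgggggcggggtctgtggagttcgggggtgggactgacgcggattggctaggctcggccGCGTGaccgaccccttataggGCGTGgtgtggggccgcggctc
The Cacna1b window held 5 copies of GCGTG and the Trpc5 window 2, while neither core was found in the windows of Scn9a and Cacnb3. RefSeq windows were at hand for 45 of the 60 genes. At least 1 core occurred in 18 of these 45 (40% against 37.9% of 27457 promoters), and in 7 of the 12 windows of genes that fell in hypoxia. These 12 windows were richer in G and C, with a median of 68.4% against 58.4% over the 45 and 52.0% over all promoters. A match describes the letters of the window only.

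In the comparison of the populations in normoxia, which asks how the immature cells differ from the mature chemoreceptors, 3 of 60 members passed, where 1.82% of all probes passed. Scn9a and Scn7a were higher in neuroblasts (3.33% of members, against 0.996% of probes) and Cacna2d2 was lower (1.67%, against 0.828%). The values of the groups did not overlap in 11 members, with 8 higher in neuroblasts (3.37% of probes were) and 3 lower (4.03% of probes). After hypoxia 1 member differed between the populations, Scn9a, which was higher in neuroblasts (1.67%, against 0.138% of probes). There 4 had no overlap, 2 higher (2.27% of probes) and 2 lower (2.21%). The median difference over the members was 0.05 in normoxia and 0.00 in hypoxia, beside -0.01 and 0.04 over all probes.

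Markers of other cells also differed between the populations, where 0.996% of all probes were higher and 0.828% lower in normoxic neuroblasts. In normoxia 6 of 14 macrophage markers were lower in neuroblasts and 0 higher, with list means per array of 4.84 to 6.46 in glomus cells and 4.07 to 4.52 in neuroblasts. The list of type II and glial markers averaged 4.90 to 5.40 in glomus cells and 5.55 to 5.88 in neuroblasts, with 1 of 8 measured genes higher, and the fibroblast list 4.84 to 6.15 and 5.33 to 8.20, with 0 of 10 passed. Endothelial markers averaged 4.91 to 6.45 in glomus cells and 4.00 to 4.55 in neuroblasts, with 1 of 8 lower (Cldn5, -3.65 ± 0.34). The peripheral neuron list averaged 6.30 to 6.40 in glomus cells and 6.64 to 6.85 in neuroblasts, with 1 of 12 measured genes higher and 0 lower. The part of these lists in the channel differences, that of Scn9a among them, was not tested. The log scale has no 0, so none of these markers is listed as absent.

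After 3 days of hypoxia 9 members passed in glomus cells, 1 higher (1.67%, against 9.37% of probes) and 8 lower (13.3%, against 9.50%). In neuroblasts 21 passed, 5 higher (8.33%, against 18.4%) and 16 lower (26.7%, against 13.7%). The fallers included Trpc5, Cacnb3, Cacna1b, Hcn2, Hcn3, Scn3b and Trpc4ap in both populations. Values did not overlap between oxygen conditions in 12 members in glomus cells (20%, against 26.4% of probes) and in 20 in neuroblasts (33.3%, against 28.0%). The median difference over the members was -0.02 in glomus cells and -0.07 in neuroblasts, below the medians of all probes at 0.17 and 0.25.

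Scaling altered the share of rises among these calls. Centring each array on its median moved the all-probe medians to -0.04 and -0.03, and the member calls became 0 higher and 12 lower in glomus cells and 1 higher and 22 lower in neuroblasts (all probes 4.50% higher and 12.4% lower, and 6.0% higher and 18% lower). With quantile normalization they were 0 higher and 7 lower in glomus cells (all probes 7.28% and 8.18%) and 1 higher and 16 lower in neuroblasts (10.8% and 12.2%). Centring brought Cacna1a, Cacna1d, Scn9a and Scn2b past the threshold in glomus cells and Trpc4, Cacna2d1, Cacna2d4, Cacng7, Scn8a and Scn2b in neuroblasts, each of them lower. Of these, quantile normalization did the same for Scn9a in glomus cells and for Trpc4 and Cacna2d4 in neuroblasts. A gene said below to have passed nowhere, or not to have passed, did so on the values as deposited. The members' median stayed below that of all probes under each scaling, at -0.23 and -0.35 with centring and at -0.16 and -0.26 with quantile normalization, where the all-probe medians were 0.01 and 0.03.

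The direction also went with the probe's mean level. Of the 31 members in the brighter 50% of probes, 0 rose and 8 fell in glomus cells (probes of that class, 13.4% higher and 18.5% lower), and 2 rose and 15 fell in neuroblasts (19.1% and 26.4%). Their medians were -0.48 and -0.71, beside 0.02 and -0.03 for all probes of the class. Of the 29 dimmer members, 1 rose and 0 fell in glomus cells (5.30% and 0.473% of such probes), and 3 rose and 1 fell in neuroblasts (17.6% and 0.920%), with medians of 0.28 and 0.32 near those of their class at 0.22 and 0.33. The plot of hypoxia differences against probe level shows both panels.

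**Figure D1:**
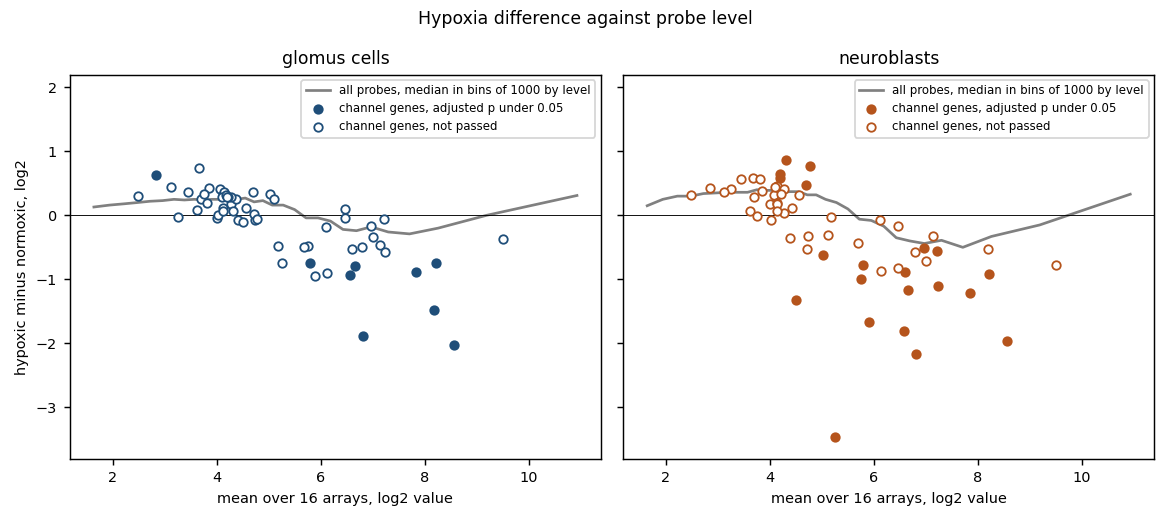
Hypoxic minus normoxic difference (log2, vertical axis) against the mean over 16 arrays (log2 value, horizontal axis) for 60 channel genes, in glomus cells on the left and neuroblasts on the right. Filled points passed at an adjusted p under 0.05, open points did not, and the grey line is the median of all probes in bins of 1000 by level. Most members that fell lie in the brighter range and below the grey line, with Scn9a lowest in neuroblasts at -3.46.

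The hypoxia differences of the members in glomus cells and in neuroblasts, which share no arrays, had the same sign in 49 of 60 genes. Across genes, which are not independent replicates, Pearson's r was 0.77 and Spearman's rho 0.80, beside r = 0.81 over all probes. The 7 genes that passed in both populations moved the same way and made up 77.8% of the calls in glomus cells and 33.3% of those in neuroblasts. Shared calls and shared signs were not counted over all probes, so this sharing is not read as particular to the channel genes. A further 14 passed in neuroblasts only and 2 in glomus cells only, but the difference between the 2 responses passed for 1 member alone, Scn9a. Of all probes 0.0789% passed that test. Its unadjusted p was under 0.05 for 8 of 60 members and for 2015 of 30429 probes.

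**Figure D2:**
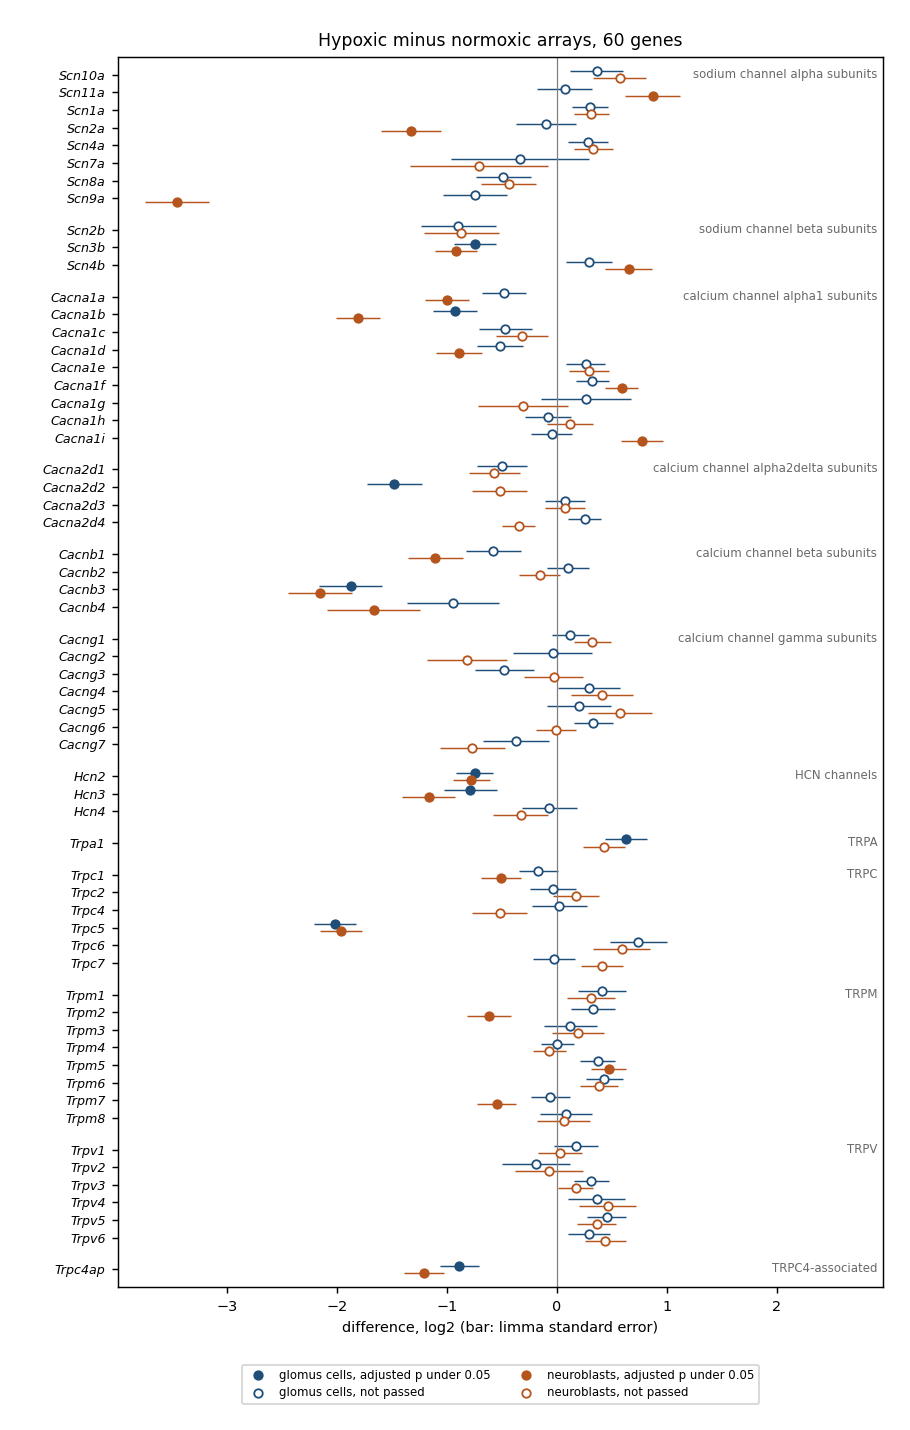
Hypoxic minus normoxic difference (log2, horizontal axis, bars are limma standard errors) for each of 60 genes, ordered by subfamily, in both populations. Filled points passed at an adjusted p under 0.05. Falls exceed 1 in size for Trpc5 and Cacnb3 in both populations, for Cacna2d2 in glomus cells and for Scn9a, Cacna1b, Cacnb4 and others in neuroblasts, while the points that rose stay below 1.

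Among sodium channel alpha subunits the widest movement was in Scn9a, the main channel of peripheral sensory and sympathetic neurons, known for setting pain thresholds. Its probe read 4.46, 4.10, 3.79 and 4.48 in normoxic glomus cells and 9.02, 7.84, 8.26 and 8.51 in normoxic neuroblasts. In hypoxia the readings were 3.86, 3.50, 3.45 and 3.02 in glomus cells and 5.63, 4.63, 4.38 and 5.14 in neuroblasts. All neuroblast values lay above all glomus cell values of the same oxygen condition, and the hypoxic neuroblasts lay far below the normoxic ones. The difference between populations was 4.20 ± 0.29 in normoxia (18.4-fold, adjusted p = 3.39e-07) and 1.49 ± 0.29 in hypoxia (2.80-fold, adjusted p = 0.0296). Scn9a fell by 3.46 ± 0.29 in neuroblasts (11.0-fold, adjusted p = 5.49e-07). In glomus cells its difference was -0.75 ± 0.29, which did not pass (adjusted p = 0.0786), and the groups overlapped there. It passed with centring (-0.97, adjusted p = 0.0204) or quantile normalization (-0.98, adjusted p = 0.0451). The 2 hypoxia differences differed by -2.71 ± 0.41 (adjusted p = 0.0120). The glomus cell means, 4.21 in normoxia and 3.46 in hypoxia, lay below the lowest array median, 4.40, while normoxic neuroblasts averaged 8.41. A probe at a low level can fall only a little, and the part of this limit in the interaction was not tested. The call after hypoxia was lost in 5 of 16 fits that each left out 1 array (hypoxic glomus replicates 2, 3 and 4, hypoxic neuroblast replicates 1 and 4), with the difference between 1.26 and 1.68. It was also lost with array weights (1.29) and with the hypoxic arrays alone (adjusted p = 0.127, the highest over its alternatives). Neuroblast markers moved with Scn9a, as 9 of 12 fell and 1 rose in hypoxic neuroblasts (13.7% and 18.4% of all probes). Among the brightest 25% of probes the shares were 37.2% and 19.6%. The list means of the neuroblast markers were 8.08 to 8.56 in normoxia and 6.97 to 7.50 in hypoxia. The part of these markers in the fall was not tested.

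Scn7a encodes an atypical channel that senses extracellular sodium and is known from glia as well as neurons. It read 6.90, 5.40, 6.75 and 4.28 in normoxic glomus cells and 9.44, 9.29, 8.33 and 7.66 in normoxic neuroblasts. The hypoxic values were 5.85, 5.33, 4.23 and 6.58 in glomus cells and 8.32, 9.04, 6.45 and 8.09 in neuroblasts. The normoxic groups did not overlap, while the lowest hypoxic neuroblast value lay just below the highest hypoxic glomus cell value. The difference was 2.85 ± 0.63 in normoxia (7.20-fold, adjusted p = 0.0238) and 2.48 ± 0.63 in hypoxia (adjusted p = 0.124). Leaving out 1 array gave differences between 2.33 and 3.20 in normoxia, and the call did not survive the loss of glomus cell replicate 2 or 4, or of neuroblast replicate 1 or 2, from the normoxic groups. Hypoxia differences were -0.34 ± 0.63 in glomus cells and -0.71 ± 0.63 in neuroblasts, neither of which passed. The glial list was higher in neuroblasts in hypoxia too, at 6.05 to 6.49 against 5.38 to 5.70 in glomus cells, and its part in the Scn7a values was not tested.

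Scn2a, the channel of central axons, read 3.96, 4.49, 4.56 and 4.42 in normoxic glomus cells and 5.93, 5.35, 4.82 and 5.31 in normoxic neuroblasts. Under hypoxia the values were 4.34, 4.39, 4.40 and 3.92 in glomus cells and 4.32, 4.26, 3.13 and 4.36 in neuroblasts. The normoxic neuroblasts stood above the other 3 groups. Scn2a fell by 1.33 ± 0.27 in neuroblasts (adjusted p = 0.00138), while the normoxic difference between populations, 1.00 ± 0.27, missed the threshold (adjusted p = 0.0805). Its difference in glomus cells was -0.10 ± 0.27.

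RefSeq places Scn1a, Scn9a and Scn7a side by side on chromosome 3, with no annotated gene between the first pair and 1 noncoding locus between the second, and Scn2a 9 annotated genes away. Scn1a, a channel of inhibitory neurons, averaged 2.41 ± 0.13, 2.26 ± 0.07, 2.71 ± 0.14 and 2.58 ± 0.32 in normoxic glomus cells, normoxic neuroblasts, hypoxic glomus cells and hypoxic neuroblasts (SD, n = 4), and passed no test. Scn11a, a channel of pain fibres, rose by 0.87 ± 0.25 in hypoxic neuroblasts (adjusted p = 0.0131), although its groups overlapped. It did not pass with centring (0.59, adjusted p = 0.0664) or quantile normalization. Scn4a of skeletal muscle, Scn8a of axon nodes and Scn10a of pain fibres passed nowhere, with differences between populations or oxygen conditions from -0.49 to 0.57.

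Of the 3 sodium channel beta subunits, which modulate gating and act as adhesion molecules, Scn3b fell in both populations. It fell by 0.75 ± 0.19 in glomus cells (from 8.55 ± 0.08 to 7.80 ± 0.29, adjusted p = 0.0107) and fell by 0.92 ± 0.19 in neuroblasts (from 8.72 ± 0.33 to 7.80 ± 0.24, adjusted p = 0.00165). In neither population did the oxygen groups overlap. With quantile normalization the difference in glomus cells, -0.59, no longer passed (adjusted p = 0.0565). Scn4b, known from muscle and sensory neurons, rose by 0.65 ± 0.21 in hypoxic neuroblasts (adjusted p = 0.0270), a call lost with either other scaling and without normoxic neuroblast replicate 3 or 4 or hypoxic neuroblast replicate 1. Scn2b differed by -0.90 ± 0.34 in glomus cells and -0.87 ± 0.34 in neuroblasts and did not pass (adjusted p = 0.0774 and 0.0613). Scn2b and Scn4b are neighbours on chromosome 8.

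**Figure D3:**
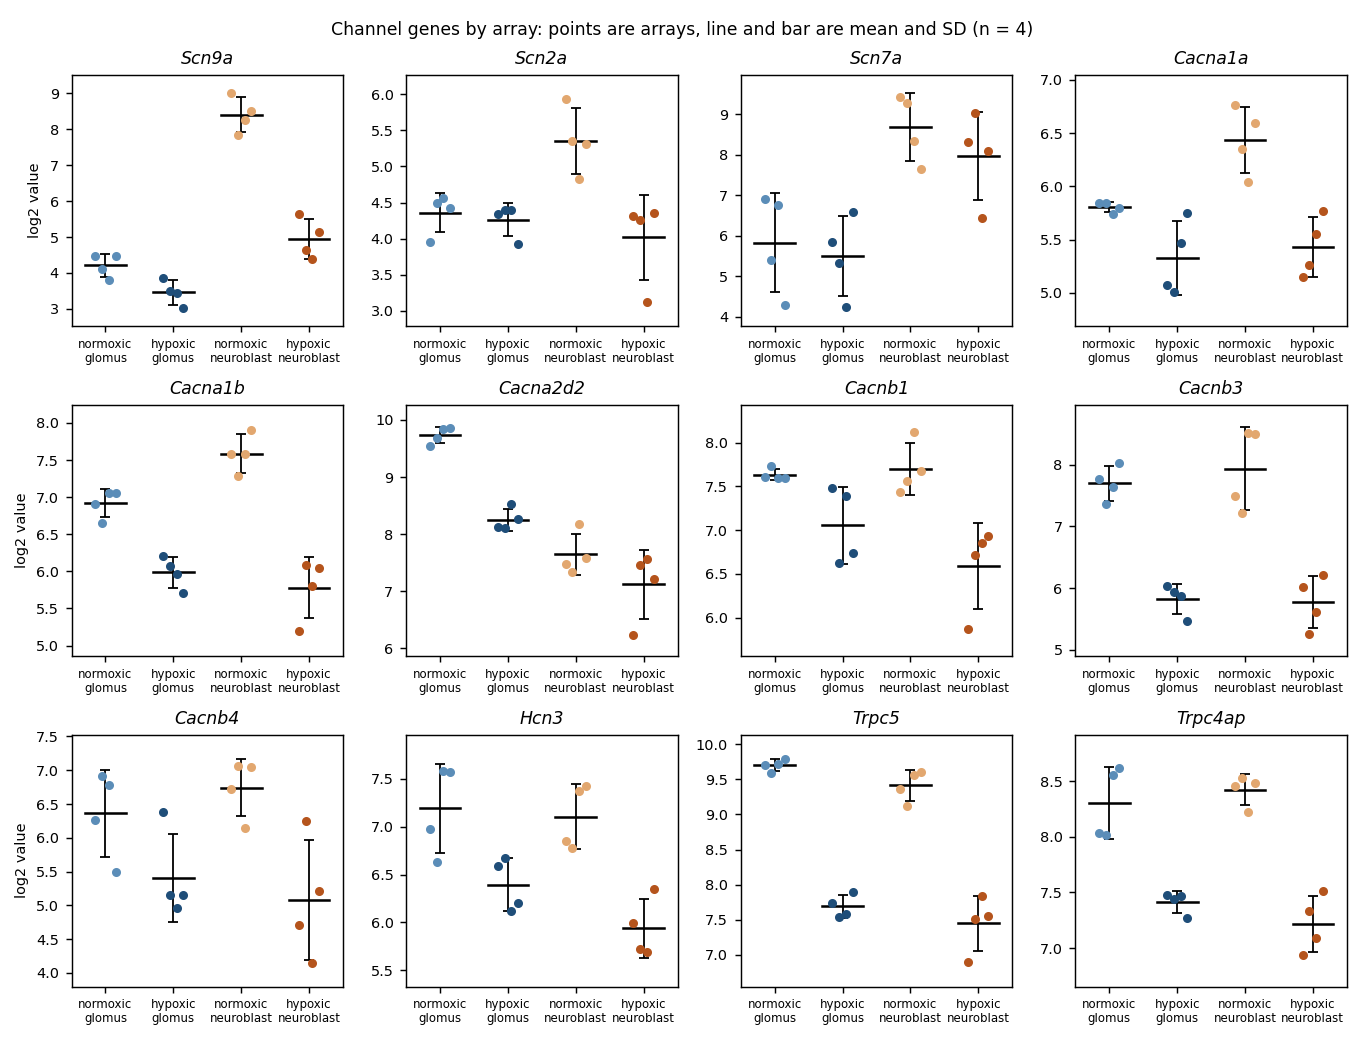
Log2 value (vertical axis) on each of 16 arrays for the 12 genes given array by array, by group (4 points each, the horizontal line is the group mean and the error bar its SD). Scn9a is highest in normoxic neuroblasts, Cacna2d2 is highest in normoxic glomus cells, and Trpc5 and Cacnb3 are lower on all hypoxic than on all normoxic arrays of their population.

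The sodium channel partner list held ankyrins, spectrins, fibroblast growth factor homologues and ubiquitin ligases that anchor, gate or remove these channels. Of 11 measured genes 0 rose and 6 fell in glomus cells (median difference -0.91), and 0 rose and 6 fell in neuroblasts (median -1.05). Of all probes 9.37% rose and 9.50% fell in glomus cells, and 18.4% rose and 13.7% fell in neuroblasts. Falls were more common among the brightest 25% of probes, at 26.7% in glomus cells and 37.2% in neuroblasts. Nedd4, a ubiquitin ligase that takes channels off the membrane, fell by 1.79 ± 0.24 in glomus cells and fell by 2.17 ± 0.24 in neuroblasts, from means of 10.15 and 10.58. Ank3, the anchor of sodium channels at the axon initial segment, was 1.59 ± 0.22 higher in normoxic neuroblasts than in glomus cells (adjusted p = 0.000340) and fell by 1.67 ± 0.22 in hypoxic neuroblasts and fell by 0.91 ± 0.22 in glomus cells. Ank2, another ankyrin, fell by 1.19 ± 0.25 in glomus cells and fell by 1.90 ± 0.25 in neuroblasts. Sptbn1, a spectrin, fell by 1.13 ± 0.22 and fell by 1.42 ± 0.22 in the same order. Fgf13, a cytosolic modulator of sodium channels, was lower in normoxic neuroblasts (-1.0 ± 0.24, adjusted p = 0.0318) and fell by 1.08 ± 0.24 in glomus cells.

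Of the 9 calcium channel alpha1 subunits, 1 fell in glomus cells (9.50% of all probes did), and 3 fell and 2 rose in neuroblasts (13.7% and 18.4% of all probes). Cacna1b, the pore of the N-type channel that couples depolarisation to transmitter release, fell in both. It read 6.91, 6.65, 7.05 and 7.05 in normoxic and 6.20, 6.07, 5.96 and 5.71 in hypoxic glomus cells. In neuroblasts it read 7.58, 7.28, 7.58 and 7.91 in normoxia and 5.19, 6.08, 5.80 and 6.05 in hypoxia. Every hypoxic value lay below every normoxic value, and the neuroblasts were above the glomus cells without overlap in normoxia. Cacna1b fell by 0.93 ± 0.20 in glomus cells (1.91-fold, adjusted p = 0.00382) and fell by 1.81 ± 0.20 in neuroblasts (3.50-fold, adjusted p = 7.45e-06). The difference between the falls, -0.88 ± 0.29, did not pass (adjusted p = 0.498), nor did the normoxic difference between populations, 0.67 ± 0.20 (adjusted p = 0.139).

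Cacna1a, the P/Q-type pore that serves release at many synapses, read 5.84, 5.84, 5.74 and 5.80 in normoxic glomus cells and 6.76, 6.35, 6.04 and 6.59 in normoxic neuroblasts. The hypoxic readings were 5.07, 5.01, 5.47 and 5.75 in glomus cells and 5.15, 5.26, 5.55 and 5.77 in neuroblasts. Normoxic neuroblasts were above all other groups, and in glomus cells hypoxic replicate 4 overlapped the normoxic group. Cacna1a fell by 1.00 ± 0.20 in neuroblasts (2.00-fold, adjusted p = 0.00123), and its glomus cell difference was -0.48 ± 0.20 (adjusted p = 0.110). Cacna1d, an L-type pore that opens at low voltages, fell by 0.89 ± 0.21 in neuroblasts (adjusted p = 0.00398) and differed by -0.52 ± 0.21 in glomus cells (adjusted p = 0.0903), without overlap in either. Cacna1c, the other common L-type pore, passed in no comparison, with group means of 7.67 ± 0.18, 7.01 ± 0.38, 7.19 ± 0.16 and 6.69 ± 0.54 in normoxic glomus cells, normoxic neuroblasts, hypoxic glomus cells and hypoxic neuroblasts.

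Both alpha1 genes that rose did so in neuroblasts. Cacna1i, a T-type pore that opens near the resting potential, rose by 0.77 ± 0.19 (from 4.21 ± 0.24 to 4.98 ± 0.32, adjusted p = 0.00576), while the glomus cells were at 4.96 ± 0.27 and 4.91 ± 0.16. Its normoxic difference between populations, -0.75 ± 0.19, had no overlap and missed the threshold (adjusted p = 0.0529), but passed with centring (-0.76, adjusted p = 0.0333). Cacna1f, an L-type pore known from the retina, rose by 0.59 ± 0.15 (adjusted p = 0.00860), which did not hold with centring (0.30, adjusted p = 0.161) or quantile normalization. The T-type genes Cacna1g and Cacna1h and the R-type gene Cacna1e passed nowhere, with differences between populations or oxygen conditions from -0.31 to 0.58.

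Cacna2d2 was the member that was higher in glomus cells than in neuroblasts past the threshold. The protein is an alpha2delta subunit and one of the targets of gabapentin. It read 9.55, 9.69, 9.85 and 9.86 in normoxic glomus cells and 7.48, 7.34, 8.17 and 7.58 in normoxic neuroblasts. In hypoxia the values were 8.12, 8.11, 8.52 and 8.26 in glomus cells and 6.24, 7.45, 7.57 and 7.21 in neuroblasts. The glomus cells lay above the neuroblasts in both conditions, and their hypoxic values lay below all their normoxic ones. The difference of neuroblasts from glomus cells was -2.09 ± 0.25 in normoxia (4.27-fold, adjusted p = 0.000101) and -1.13 ± 0.25 in hypoxia (adjusted p = 0.0727), where it passed with quantile normalization (-0.99, adjusted p = 0.0468). Cacna2d2 fell by 1.48 ± 0.25 in glomus cells (2.80-fold, adjusted p = 0.000516). In neuroblasts the difference was -0.52 ± 0.25 (adjusted p = 0.111, and -0.23 without hypoxic neuroblast replicate 1), and the interaction, 0.96 ± 0.35, did not pass (adjusted p = 0.618).

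The other alpha2delta genes passed nowhere. Cacna2d1, a widely expressed gabapentin target, differed by -0.50 ± 0.23 and -0.57 ± 0.23 in hypoxia. Cacna2d4, known from the retina, was at 4.68 ± 0.19 in normoxic neuroblasts and 4.12 ± 0.20 in normoxic glomus cells, a difference of 0.57 ± 0.15 with no overlap that missed the threshold (adjusted p = 0.0641). For Cacna2d3 the differences between populations or oxygen conditions ran from -0.05 to 0.07.

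Among the 4 beta subunits 0 rose in either population, 1 fell in glomus cells and 3 fell in neuroblasts, with a median difference of -1.39 over the 4 in neuroblasts. Of all probes 9.50% and 13.7% fell in the same order. In the brighter 50% of probes, where these 4 lie, the shares were 18.5% and 26.4%. Cacnb3 read 7.77, 7.36, 7.64 and 8.03 in normoxic and 6.03, 5.93, 5.87 and 5.47 in hypoxic glomus cells. In neuroblasts it read 7.50, 7.22, 8.52 and 8.50 in normoxia and 6.01, 5.26, 5.62 and 6.22 in hypoxia. The oxygen groups did not overlap in either population, and the populations overlapped in each condition. Cacnb3 fell by 1.88 ± 0.29 in glomus cells (3.67-fold, adjusted p = 0.000225) and fell by 2.16 ± 0.29 in neuroblasts (4.46-fold, adjusted p = 3.09e-05).

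Cacnb1, first known from muscle, read 7.61, 7.73, 7.60 and 7.59 in normoxic and 7.48, 6.62, 7.39 and 6.74 in hypoxic glomus cells. Its neuroblast values were 7.43, 7.56, 8.12 and 7.68 in normoxia and 5.87, 6.72, 6.85 and 6.93 in hypoxia. The hypoxic values were lower in both populations without overlap, but the hypoxic groups were spread widely. Cacnb1 fell by 1.11 ± 0.25 in neuroblasts (adjusted p = 0.00270), and its glomus cell difference was -0.58 ± 0.25 (adjusted p = 0.116).

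Cacnb4, a neuronal subunit, read 6.26, 6.92, 6.78 and 5.49 in normoxic and 6.38, 5.16, 4.96 and 5.15 in hypoxic glomus cells. In neuroblasts the values were 6.72, 7.06, 6.15 and 7.05 in normoxia and 4.71, 6.25, 4.15 and 5.21 in hypoxia. Hypoxic neuroblast replicate 2 overlapped the normoxic group, and hypoxic glomus replicate 1 lay well above the other 3 of its group. Cacnb4 fell by 1.67 ± 0.42 in neuroblasts (3.17-fold, adjusted p = 0.00613), and the glomus cell difference was -0.95 ± 0.42 (adjusted p = 0.125). Cacnb2, common in the heart, passed nowhere, at 6.65 ± 0.26 and 6.75 ± 0.14 in normoxic and hypoxic glomus cells and 6.31 ± 0.15 and 6.15 ± 0.40 in neuroblasts.

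None of the 7 gamma subunit genes passed in any comparison, and 1, 1, 0 and 2 of them had an unadjusted p under 0.05 between the populations in normoxia, between them in hypoxia, and across oxygen conditions in glomus cells and in neuroblasts. Of all 30429 probes 2849, 3389, 9637 and 13893 did so in the same order. Cacng2, Cacng3, Cacng4, Cacng5 and Cacng7 belong to the group that also escorts AMPA glutamate receptors, and Cacng1 is a part of the muscle channel. The lowest differences were those of Cacng2, -1.03 ± 0.36 between populations in hypoxia (adjusted p = 0.309) and -0.82 ± 0.36 in hypoxic neuroblasts (adjusted p = 0.0875, and -0.51 without hypoxic neuroblast replicate 1). Cacng7 averaged 9.77 ± 0.28 and 9.81 ± 0.42 in normoxic and 9.39 ± 0.15 and 9.04 ± 0.77 in hypoxic glomus cells and neuroblasts, and its neuroblast difference of -0.77 ± 0.30 did not pass (adjusted p = 0.0582). Hypoxic neuroblast replicate 1 read 7.89 against 9.27 to 9.51 on the other 3 arrays of its group, and without it the Cacng7 difference was -0.39, whereas with centring and all arrays it passed (-1.05, adjusted p = 0.0303). Cacng1, Cacng4 and Cacng5 lie together on chromosome 10, and their differences between populations or oxygen conditions ranged from -0.08 to 0.57.

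The calcium channel partner list covered proteins that tie these channels to the release site or regulate them. Of 13 measured genes 1 rose and 1 fell in glomus cells (median 0.03), and 0 rose and 3 fell in neuroblasts (median -0.15). The all-probe shares were 9.37% higher and 9.50% lower in glomus cells, and 18.4% and 13.7% in neuroblasts. Rimbp2, which links calcium channels to the release machinery, was higher in normoxic neuroblasts (0.92 ± 0.16, adjusted p = 0.00289) and fell by 1.30 ± 0.16 there and fell by 0.54 ± 0.16 in glomus cells. Stac, an adaptor of L-type channels, was 1.44 ± 0.29 higher in normoxic neuroblasts and fell by 1.48 ± 0.29 in them, and Rims2, a scaffold of the active zone, fell by 0.78 ± 0.21. Camk2b, a calmodulin-dependent kinase subunit, rose by 0.53 ± 0.16 in glomus cells (adjusted p = 0.0269).

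**Figure D4:**
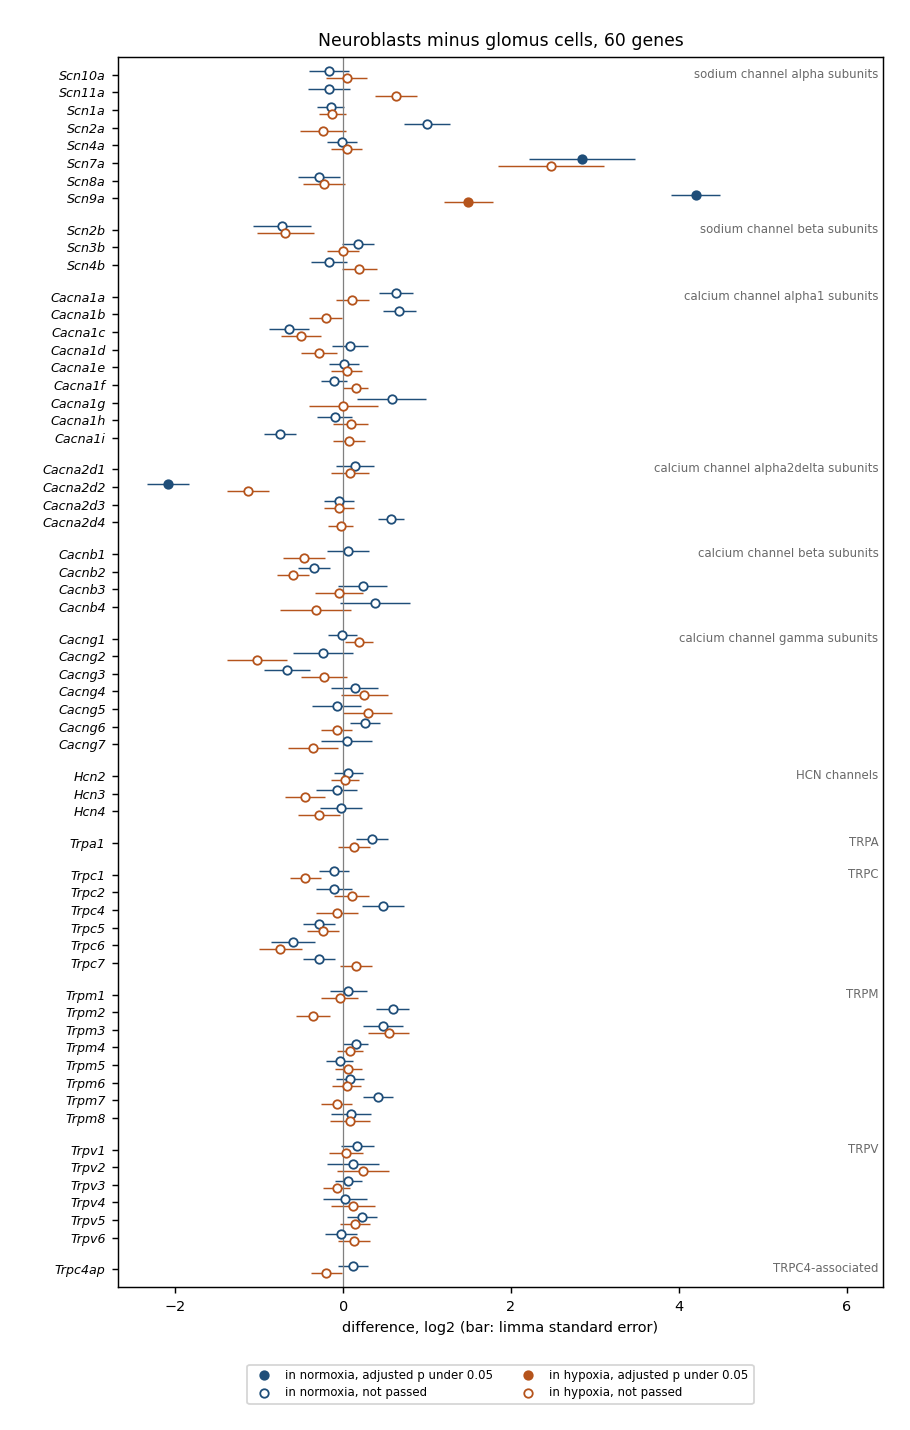
Neuroblast minus glomus cell difference (log2, horizontal axis, bars are limma standard errors) for each of 60 genes by subfamily, in normoxia and in hypoxia. Filled points passed at an adjusted p under 0.05. Scn9a and Scn7a lie on the right in normoxia at 4.20 and 2.85 and Cacna2d2 on the left at -2.09, while most other genes lie near 0.

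Of the genes that clear, store or buffer calcium, 0 of 18 rose and 4 fell in glomus cells (median 0.00), and 1 rose and 6 fell in neuroblasts (median -0.18). The all-probe shares were 9.37% higher and 9.50% lower in glomus cells, and 18.4% and 13.7% in neuroblasts. Ryr2, a release channel of internal stores, was 1.09 ± 0.19 higher in normoxic neuroblasts (adjusted p = 0.00395) and fell by 2.12 ± 0.19 in them and fell by 1.11 ± 0.19 in glomus cells. The plasma membrane pump gene Atp2b3 fell by 1.01 ± 0.17 in glomus cells and fell by 1.09 ± 0.17 in neuroblasts. The store pump gene Atp2a2 fell by 0.99 ± 0.25 and fell by 0.93 ± 0.25 in the same order. Atp2a3, another store pump gene, was lower in neuroblasts in normoxia (-1.63 ± 0.18, adjusted p = 5.55e-05) and in hypoxia (-1.23 ± 0.18, adjusted p = 0.00474). Pvalb, a calcium buffer, rose by 0.70 ± 0.19 in hypoxic neuroblasts, from 3.40 ± 0.20 to 4.10 ± 0.31. All probes between 25% and 50% by mean level had a median of 0.37 in that comparison. This rise and those of other list genes are on the values as deposited, and no other scaling is given for them. The exchanger gene Slc8a1 was 1.22 ± 0.21 higher in normoxic neuroblasts.

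Of the 3 HCN genes, 2 fell in each population, where 9.50% of all probes fell in glomus cells and 13.7% in neuroblasts. Hcn3 read 6.98, 6.63, 7.58 and 7.57 in normoxic and 6.59, 6.67, 6.12 and 6.20 in hypoxic glomus cells. In neuroblasts it read 6.85, 6.78, 7.37 and 7.42 in normoxia and 5.99, 5.72, 5.69 and 6.35 in hypoxia. The neuroblast groups were apart, whereas in glomus cells hypoxic replicate 2 reached above normoxic replicate 2. Hcn3 fell by 0.79 ± 0.24 in glomus cells (adjusted p = 0.0277) and fell by 1.17 ± 0.24 in neuroblasts (adjusted p = 0.00152). The glomus cell call was lost with quantile normalization and without normoxic glomus replicate 3 or 4 or hypoxic glomus replicate 3 or 4 (adjusted p up to 0.102). Hcn2 fell by 0.75 ± 0.17 in glomus cells (from 6.14 ± 0.13 to 5.39 ± 0.31, adjusted p = 0.00505) and fell by 0.78 ± 0.17 in neuroblasts (from 6.20 ± 0.21 to 5.42 ± 0.13, adjusted p = 0.00235), without overlap. Hcn4, the main pacemaker gene of the heart, passed nowhere.

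The sodium leak channel and HCN partner list held 8 measured genes, of which 0 rose and 3 fell in each population (medians -0.02 and -0.30), where 9.50% and 13.7% of all probes fell. All 3 belong to the leak channel: its pore gene Nalcn fell by 1.19 ± 0.20 in glomus cells and fell by 1.39 ± 0.20 in neuroblasts. In the same order Unc79 fell by 1.11 ± 0.15 and fell by 1.67 ± 0.15, and Nalf1 fell by 1.22 ± 0.41 and fell by 2.26 ± 0.41. The leak channel carries a standing sodium current that sets the resting potential.

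Among the 21 TRP channels, 1 rose and 1 fell in glomus cells (9.37% and 9.50% of all probes), and 1 rose and 4 fell in neuroblasts (18.4% and 13.7%). The median difference of 0.17 in glomus cells equalled that of all probes, and in neuroblasts 0.17 stood beside 0.25. With centring the TRP medians were -0.05 and -0.11. The fall that passed in both populations was that of Trpc5, a calcium-permeable channel opened downstream of phospholipase C. It read 9.71, 9.59, 9.72 and 9.79 in normoxic and 7.73, 7.54, 7.58 and 7.90 in hypoxic glomus cells. In neuroblasts it read 9.37, 9.12, 9.57 and 9.60 in normoxia and 6.89, 7.51, 7.83 and 7.55 in hypoxia. The replicates of glomus cells were tight and the oxygen groups lay well apart in each population. Trpc5 fell by 2.02 ± 0.19 in glomus cells (4.04-fold, adjusted p = 6.57e-06) and fell by 1.97 ± 0.19 in neuroblasts (3.92-fold, adjusted p = 1.5e-06). The difference between these falls was 0.05 ± 0.27, and the populations did not differ past the threshold in normoxia (-0.29 ± 0.19) or hypoxia (-0.24 ± 0.19).

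Among the other TRPC genes 1 passed. Trpc1, which joins other TRPC subunits, fell by 0.51 ± 0.18 in neuroblasts (adjusted p = 0.0417), a call lost with quantile normalization (-0.26), array weights (-0.36), the neuroblast arrays alone (-0.50) or a variance trend with robust estimation. It was also lost in 7 of 16 fits without 1 array: normoxic glomus replicate 2 or 3, normoxic neuroblast replicate 1, 2 or 3, or hypoxic neuroblast replicate 1 or 3. Trpc6, a channel opened by diacylglycerol, was at 3.64 ± 0.52 in normoxic and 4.38 ± 0.48 in hypoxic glomus cells, a difference of 0.74 ± 0.26 that did not pass (adjusted p = 0.0577). Trpc2, Trpc4 and Trpc7 passed nowhere. Trpc4ap read 8.03, 8.02, 8.55 and 8.62 in normoxic and 7.48, 7.44, 7.47 and 7.27 in hypoxic glomus cells, and 8.46, 8.53, 8.22 and 8.48 and then 6.94, 7.33, 7.09 and 7.51 in neuroblasts. Its hypoxic values lay below all normoxic values. Trpc4ap fell by 0.89 ± 0.18 in glomus cells (adjusted p = 0.00192) and fell by 1.21 ± 0.18 in neuroblasts (adjusted p = 8.19e-05).

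Trpa1, the irritant receptor of sensory nerves, was the single member that rose in glomus cells. Its probe was in the lowest 25% of probes by mean level, with means of 2.40 ± 0.16 in normoxia and 3.04 ± 0.23 in hypoxia, and the difference was 0.63 ± 0.19 without overlap (adjusted p = 0.0284). It did not pass with centring (0.42, adjusted p = 0.114) or quantile normalization (0.41), nor without normoxic glomus replicate 3 or 4 or hypoxic glomus replicate 3 or 4. In neuroblasts Trpa1 was at 2.74 ± 0.10 in normoxia and 3.17 ± 0.41 in hypoxia, a difference of 0.43 ± 0.19 (adjusted p = 0.0941, and 0.25 without hypoxic neuroblast replicate 1).

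Of the 8 TRPM genes 0 passed in glomus cells, and 1 rose and 2 fell in neuroblasts (18.4% and 13.7% of all probes). Trpm2, a channel gated by ADP-ribose and oxidants, fell by 0.62 ± 0.20 (adjusted p = 0.0256), from 5.39 ± 0.20 to 4.78 ± 0.14. In glomus cells its difference was 0.33 ± 0.20, and the interaction of -0.95 ± 0.28 did not pass (adjusted p = 0.399). Trpm7, a channel fused to a kinase that carries magnesium, fell by 0.55 ± 0.18 (adjusted p = 0.0291), and Trpm5, a calcium-activated channel of taste cells, rose by 0.47 ± 0.16 (adjusted p = 0.0365). The call for Trpm2 was lost without normoxic neuroblast replicate 1, 3 or 4 or hypoxic neuroblast replicate 3. That for Trpm7 was lost without normoxic neuroblast replicate 1, 2 or 4 or hypoxic neuroblast replicate 2 or 3, and with quantile normalization (-0.25). That for Trpm5 was lost without normoxic neuroblast replicate 3 or 4 or hypoxic neuroblast replicate 1, 2 or 3, and with centring (0.19) or quantile normalization (0.21). Trpm1, Trpm3, Trpm4, Trpm6 and Trpm8, the cold receptor, passed nowhere.

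No TRPV gene passed in any comparison. Trpv1, the capsaicin and heat receptor, was between 4.14 and 4.34 in the means of the 4 groups, and Trpv2 between 5.93 and 6.23. Trpv4, an osmotic and warmth sensor, differed by 0.46 ± 0.26 in neuroblasts (adjusted p = 0.180), a value that was 0.22 without hypoxic neuroblast replicate 1. Trpv5 and Trpv6, neighbouring genes for calcium-selective channels of epithelia, differed by 0.45 ± 0.18 (adjusted p = 0.101) and 0.29 ± 0.19 in glomus cells and by 0.36 ± 0.18 and 0.44 ± 0.19 in neuroblasts. Over all 60 members 36 passed in none of the 5 comparisons, and 21 had no unadjusted p under 0.05 in any. Neither count was made over all probes, so neither is read as particular to the channel genes. With 4 arrays a group a p above the threshold does not show that levels were equal.

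In the list of store-operated entry and other TRP genes, 0 of 13 rose and 2 fell in glomus cells (median -0.22), and 2 rose and 3 fell in neuroblasts (median -0.26). The all-probe shares were 9.37% higher and 9.50% lower in glomus cells, and 18.4% and 13.7% in neuroblasts. Stim1, the sensor of empty calcium stores, fell by 1.27 ± 0.19 in glomus cells and fell by 1.51 ± 0.19 in neuroblasts. Plcb4, a phospholipase C of the kind that acts upstream of TRPC channels, fell by 1.02 ± 0.16 and fell by 1.32 ± 0.16 in the same order. Orai1, the pore that Stim1 opens, rose by 0.81 ± 0.23 in neuroblasts (adjusted p = 0.0131). Pkd2 fell by 0.93 ± 0.21 and Pkd2l1 rose by 0.87 ± 0.20 there, both TRP-related channel genes outside the families above. None of these 13 differed between the populations in either oxygen condition by limma (1 and 2 with an unadjusted p under 0.05).

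Some markers of other cells also passed between oxygen conditions. Their counts stand beside 9.37% of all probes higher and 9.50% lower in glomus cells, and 18.4% higher and 13.7% lower in neuroblasts. In glomus cells 4 of 14 macrophage markers rose and 0 fell, with list means of 4.84 to 6.46 in normoxia and 5.81 to 6.36 in hypoxia, while in neuroblasts 0 passed (4.07 to 4.52 and 4.52 to 4.99). Of 8 glial markers 1 rose (S100b, by 1.93 ± 0.41) and 1 fell (Cdh19, -0.90 ± 0.28) in glomus cells, and 2 rose (S100b, by 2.33 ± 0.41, and Gfap, by 0.87 ± 0.17) and 0 fell in neuroblasts, with the glial list at 4.90 to 5.40 and 5.38 to 5.70 in glomus cells and 5.55 to 5.88 and 6.05 to 6.49 in neuroblasts. Glomus cell markers fell in 4 and rose in 1 of 12 cases in glomus cells, at list means of 10.54 to 10.72 and 10.10 to 10.33, and fell in 4 and rose in 3 in neuroblasts (9.61 to 9.94 and 9.28 to 10.06). Of 8 endothelial markers 2 rose and 0 fell in each population, with Cldn5 up by 1.77 ± 0.34 in glomus cells and by 2.60 ± 0.34 in neuroblasts (list means 4.91 to 6.45 and 5.70 to 6.64, then 4.00 to 4.55 and 4.95 to 5.19). Of 12 peripheral neuron markers 1 fell in glomus cells (Isl1, -1.43 ± 0.27), while 4 fell, Isl1 most (-2.31 ± 0.27), and 2 rose in neuroblasts, at list means of 6.64 to 6.85 in normoxia and 6.11 to 6.68 in hypoxia. In the fibroblast, pericyte and T cell lists at most 2 genes rose and at most 1 fell in each population. The part of these changes in the channel results was not tested. Without hypoxic neuroblast replicate 1 the member calls were 2 higher and 11 lower in glomus cells (12.6% and 11.2% of all probes) and 3 higher and 16 lower in neuroblasts (14.7% and 11.9%).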

How the data were processed

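Affymetrix array values of 16 samples (4 groups of 4) were used as deposited by the authors, on a log2 scale that was inferred from their range of 0.87 to 13.33, because no base is stated with the values. Transcriptome Analysis Console is named per the submitters' processing notes. Its version, and how background and normalization were handled, were not given in the sources used here, and the number of arrays limits the precision. Probes were named through the platform annotation (1 gene for 18511 probes, several for 575, none for 11343), and genes by symbol pattern.

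A mean per group was fitted to all 30429 probes with limma 3.58.1 in R 4.3.3 (lmFit and eBayes, no trend, 12 residual degrees of freedom), without a filter on dim probes or further normalization. Each of 5 comparisons was tested two-sided, with Benjamini-Hochberg adjustment of its p-values across every probe, and a gene passed at an adjusted p under 0.05. The code was tested on simulated data. Group values are means ± SD. Lists are given by counts and medians, with up to 4 genes named per comparison, those with the smallest p among genes that passed. Members that passed with a difference of at least 1 in size, and Scn9a, Cacna1b and Trpc5, are given array by array, and other members by difference or group means. The members and lists were chosen with earlier results of these data known. The labels do not say whether same-numbered samples are pairs. Their deviations from the group means correlated at -0.10 to 0.20, which with 4 arrays a group cannot settle it, and the main fit used no pairing. Promoter windows are RefSeq's (GRCr8), matched by gene ID. Alternatives covered scaling, filters on dim probes, variance options, array weights, the arrays fitted, a replicate block, averaged probes, stricter thresholds and leaving out each array. Figures used Python 3.11.15 and matplotlib 3.10.9.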

Additional observations from a re-analysis of the deposited data

Results flagged for a closer look

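The interaction of Scn9a was taken up because the hypoxia difference itself differed between populations, by -2.71 ± 0.41 on the log2 scale (limma, adjusted p = 0.0120), with all 4 hypoxic neuroblast arrays below all 4 normoxic ones. In glomus cells the probe was already low in normoxia, at a mean of 4.21, which limits how far it could fall there. Single arrays stood apart from the other 3 of their group, relative to the range of that group, in 4 of the 48 groups formed by the 12 genes given array by array. These were Cacnb1 in normoxic glomus replicate 2 at 7.73, Cacnb4 in hypoxic glomus replicate 1 at 6.38, Scn2a in hypoxic glomus replicate 4 at 3.92 and Scn2a in hypoxic neuroblast replicate 3 at 3.13. For Cacnb1 the other arrays of the group read 7.59 to 7.61, so the gap was small in size. Over all members 11 of 240 groups met the same criterion (Dixon's ratio above its 95% critical value), which chance meets in about 1 in 20 groups.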

How the results depend on the processing

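Over 1136 combinations of a named result and an alternative, 1028 kept direction and side of the threshold, 96 lost the call, 8 gained it and 4 changed sign. The 4 were the Trpc5 interaction with centring (-0.02) and without 1 array (-0.08 to 0.23 over all such fits), which never passed. Counts of members passed moved as follows. Beside the main fit, shares of all probes were counted only for centring, quantile normalization and the fit without hypoxic neuroblast replicate 1. The shifts are therefore not read as particular to the channel genes. With array weights 8 passed between the populations in normoxia, 0 in hypoxia, and 18 in hypoxic glomus cells. For the populations in hypoxia, where 1 passed, 2 passed with quantile normalization or without the dimmer 50% of probes, and 0 with the compared arrays alone or at an adjusted p under 0.01. That threshold also left 0 interactions. Requiring a difference of at least 1 left 3 in glomus cells and 10 in neuroblasts. Leaving out 1 array gave 2 to 6 in normoxia (6 without hypoxic neuroblast replicate 1, which added Cacna1b, Cacna1i and Cacna2d4), 0 to 1 between the populations in hypoxia, 7 to 13 in glomus cells, 17 to 27 in neuroblasts and 1 interaction in every fit. Without hypoxic neuroblast replicate 1 the all-probe shares in normoxic neuroblasts were 1.27% higher and 1.24% lower, against 0.996% and 0.828% in the main fit. Whether replicate numbers pair the samples is not labelled. With the replicate number as a block 2 members passed between the populations in hypoxia (Cacna2d2 gained), 11 in glomus cells (Trpc6 and Scn9a gained) and 23 in neuroblasts (Trpc1 lost, Cacng2, Cacng7 and Scn2b gained). As a block within oxygen condition it gave 2 between the populations in hypoxia (Scn7a gained). The causes were not tested. Dim probes limit the reading of small differences: 4 members lay in the lowest 25% of probes.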
